A study of Mus musculus with 13 samples.

Results

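The 10 genes described here are the core circadian clock genes Per1, Per2, Per3, Cry1, Cry2, Arntl (which encodes BMAL1), Clock, Npas2, Nr1d1 and Nr1d2. They were chosen by name, with earlier results of these data known, and matched by gene symbol. All 10 were found once each among the 32285 genes counted. Their RNA was followed across cell classes of the hippocampus in single-nucleus RNA sequencing of 13 female mice of a hybrid strain that the labels spell C3HB6F1 or C3B6F1, with 1 droplet library per mouse and nuclei sorted from frozen whole hippocampus. Of these mice, 3 were young (5 months) and fed ad libitum, 3 were old (24 months) and fed ad libitum, 3 were old (24 months) on acute dietary restriction that began at 20 months, and 4 were old (24 months) on long-term dietary restriction that began at 5 months. Both restricted groups were compared with the same 3 old ad libitum mice, which also served the comparison of old with young. The hour of the day at which tissue was taken, the hour of feeding and the degree of restriction are not given in the sources used here. For genes that cycle over the day, a difference in level, a difference in phase and a difference in the hour of collection cannot be told apart from samples of this kind.

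The clock is a feedback loop of transcription. CLOCK, or its relative NPAS2, pairs with BMAL1 and binds E-box sequences in the promoters of the Per, Cry and Nr1d genes. PER and CRY proteins then assemble and repress that same activator, and the nuclear receptors encoded by Nr1d1 and Nr1d2 (REV-ERB alpha and beta) repress Arntl through REV-ERB response elements. Tissues outside the hypothalamic pacemaker carry the same loop, and feeding time, glucocorticoids and, in the brain, neuronal activity are known inputs to Per transcription.

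Libraries held between 38546292 and 80538090 UMIs (unique molecular identifiers, which count captured RNA molecules), with medians of 3801 to 11375 UMIs per nucleus. After removal of poor barcodes and predicted doublets, 98041 nuclei remained, of which 85013 fell in classes named from marker genes and 13028 in clusters left unnamed. Each class name rests on its markers, so classes are written as X-like. None of the 10 clock genes was among the genes used for clustering. Barcode sequences were shared by 2 or more libraries in 1358 of 104391 cases. The 4 libraries numbered 1 (1 in each group) stood apart, since 0.765% to 3.912% of their class-named nuclei were oligodendrocyte-like, against 8.986% to 25.719% in the other 9. Results were therefore also computed without them. In all, 11 classes had at least 20 nuclei in at least 2 mice of every group and were tested, with UMIs summed per mouse and class and expressed as CPM, the share of that sum scaled to a common depth.

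In the GENCODE annotation of mm10 the clock genes lie at separate loci, and some share ground with other genes. Per1 occupies chr11:69095217-69109960 on the plus strand, and Per2 occupies chr1:91415982-91459324 on the minus strand. Cry1 is at chr10:85131700-85185064 (minus) and Nr1d2 at chr14:18204054-18239127 (minus), and the annotation lists no gene that overlaps any of these 4. Cry2, at chr2:92403646-92434043 (minus), is overlapped for 23.42 kb by D930015M05Rik on the opposite strand. Nr1d1, at chr11:98767932-98775333 (minus), shares 1.08 kb with the opposite-strand gene Thra. Arntl spans chr7:113207465-113314126 (plus), Clock spans chr5:76209868-76304792 (minus) and Npas2 spans chr1:39193731-39363236 (plus), each with small predicted genes or pseudogenes inside it. Per3, at chr4:151003652-151044665 (minus), lies wholly inside Camta1 on the same strand, so its count is uncertain. Whether strand was used in counting is not given in the sources used here, so the Cry2 and Nr1d1 counts may also hold reads of their partners.

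Promoter stretches from RefSeq (build GRCm38.p6, 250 bases before to 50 bases after each start) were available for 9 of the 10 genes. The stretches below show examples of each clock element found, in Per1, Cry1 and Arntl, together with Tef, a clock output, and Sgk1, the gene whose oligodendrocyte-like level followed Per1 most closely. Letters run 5′ to 3′ on the strand of the gene, and capitals mark matches to the E-box CACGTG, the E-prime box CACGTT (seen as AACGTG on its other strand), the D-box TTATGNAA bound by Tef, Dbp and Hlf proteins, the REV-ERB element (printed in Arntl), or the glucocorticoid response element (printed in Sgk1).
Per1, chr11:69098779-69098948, plus strand: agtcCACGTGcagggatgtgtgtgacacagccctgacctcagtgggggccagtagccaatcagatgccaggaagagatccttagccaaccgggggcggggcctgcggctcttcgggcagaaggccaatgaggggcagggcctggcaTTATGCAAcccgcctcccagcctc
Cry1, chr10:85185055-85185154, minus strand: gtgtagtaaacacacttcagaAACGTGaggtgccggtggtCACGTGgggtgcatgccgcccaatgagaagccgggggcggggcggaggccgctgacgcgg
Arntl, chr7:113207532-113207560, plus strand: ggcagaAAGTAGGTCAgggacggaggtgc
Tef, chr15:81802523-81802672, plus strand: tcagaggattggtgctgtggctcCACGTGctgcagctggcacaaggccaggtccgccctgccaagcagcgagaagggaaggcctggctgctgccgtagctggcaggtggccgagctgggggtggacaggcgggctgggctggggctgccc
Sgk1, chr10:21993690-21993789, plus strand: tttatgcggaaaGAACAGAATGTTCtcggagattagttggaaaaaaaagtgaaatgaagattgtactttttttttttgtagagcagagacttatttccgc

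In Per1 the E-box begins 166 bases and the D-box 24 bases before the start. In Cry1 the E-prime box begins 79 bases and the E-box 60 bases before it, in Tef the E-box begins 127 bases before it, and in Sgk1 the glucocorticoid response element begins 188 bases before it. The Arntl match begins at base 28 after the start of 1 of its 2 listed promoters. Both strands were searched, and the E-box and glucocorticoid element read the same on both. Among the 9 genes, 2 held the E-box (Per1, Cry1), 3 the E-prime box (Cry1, Cry2, Nr1d1), 2 the D-box (Per1, Per3) and 1 the REV-ERB element (Arntl), while 0 held the cAMP response element TGACGTCA or the glucocorticoid element in this window. Of all 32851 RefSeq promoter stretches of this length, 7.15% held the E-box, 4.68% the E-prime box, 3.38% the D-box, 0.219% the REV-ERB element, 1.79% the cAMP element and 0.475% the glucocorticoid element. A match describes letters only and is not a binding site.

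Acute restriction was compared with ad libitum feeding in old mice. Per1 and Per2, repressors of the loop, were higher in oligodendrocyte-like nuclei, by 2.89-fold and 3.01-fold, and Per2 was also higher in astrocyte-like nuclei, by 2.22-fold. No other clock gene passed the test in any class. Of 110 pairs of a clock gene and a class, 76 had enough counts to be tested, and these 3 were called at an adjusted p below 0.05, all 3 of them higher. Over all genes and the 11 classes, 0.209% of gene and class pairs were called in this comparison, and within single classes 1.84% of genes tested in oligodendrocyte-like nuclei and 0.0436% (5 of 11476 genes) in astrocyte-like nuclei. The clock genes were chosen with earlier results of these data known. Their counts, here and in the comparisons below, are therefore not independent evidence.

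Per1 in oligodendrocyte-like nuclei stood at 19.8, 13.6 and 10.9 CPM in the old ad libitum mice and at 45.7, 33.4 and 44.5 CPM in the acutely restricted mice. Each restricted mouse was above each ad libitum mouse. The means were 14.8 and 41.2 CPM, the log2 fold change was 1.53 ± 0.29 (SE) and the adjusted p was 0.00237. These levels rest on 8, 47 and 28 UMIs of Per1 in the ad libitum mice and 12, 103 and 99 UMIs in the restricted mice.

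Per2 in oligodendrocyte-like nuclei stood at 14.9, 7.53 and 6.24 CPM in the old ad libitum mice and at 22.8, 24.7 and 23.8 CPM after acute restriction. The restricted mice lay close together and did not overlap with the ad libitum mice, of which the library numbered 1 was the highest. The log2 fold change of Per2 was 1.59 ± 0.31 with an adjusted p of 0.00343, from 6, 26 and 16 UMIs against 6, 76 and 53 UMIs. In astrocyte-like nuclei Per2 stood at 36.6, 35.2 and 44.1 CPM in the ad libitum mice and at 78.7, 89.9 and 85.5 CPM after acute restriction. Here too the groups were apart, with a log2 fold change of 1.15 ± 0.19 and an adjusted p of 0.036.

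**Figure D1:**
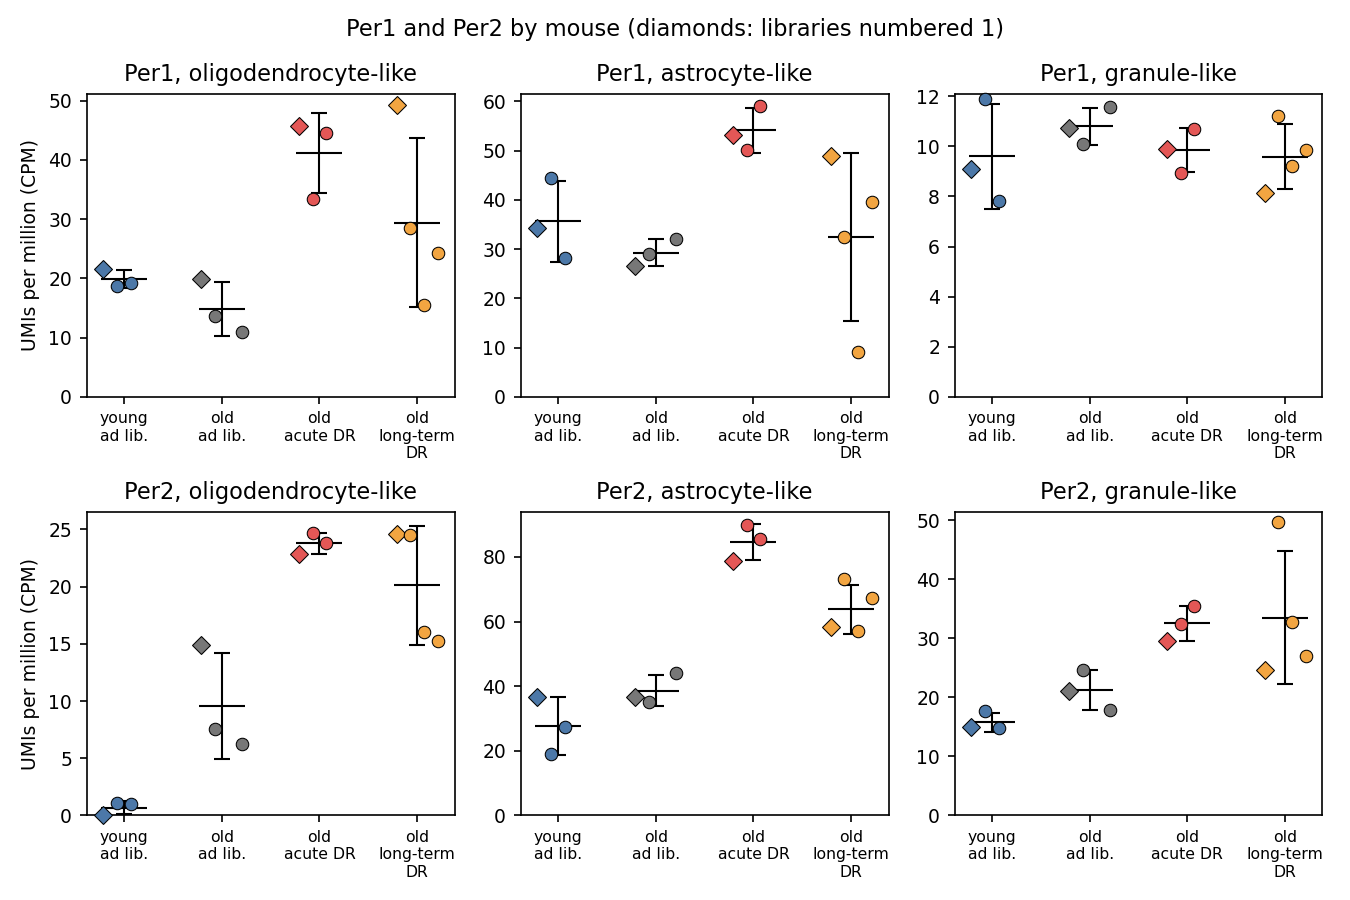
Per1 and Per2 in CPM for each mouse, by group, in oligodendrocyte-like, astrocyte-like and dentate granule neuron-like nuclei. Points are mice, diamonds are the libraries numbered 1, and bars give the mean ± SD. In oligodendrocyte-like nuclei Per1 lies at 33.4 to 45.7 CPM in the 3 acutely restricted mice, above the 10.9 to 19.8 CPM of the 3 old ad libitum mice, whereas Per1 in granule-like nuclei lies between 7.81 and 11.9 CPM in all 13 mice.

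The calls were sensitive to single mice and, for Per2, to the test. Without old ad libitum replicate 4 the Per1 change in oligodendrocyte-like nuclei was 1.40 with an adjusted p of 0.0528. Without that mouse the Per2 change there was 1.43 (adjusted p = 0.0718), and without old ad libitum replicate 2 it was 1.58 (adjusted p = 0.0646). With DESeq2 it was 1.53 (adjusted p = 0.0585). The Per2 change in astrocyte-like nuclei stayed between 1.10 and 1.20 when any 1 of the 13 mice was left out, but its adjusted p passed the threshold in only 5 of those 13 fits, failing without any of the old ad libitum or acutely restricted mice and without long-term replicates 2 and 4. It also failed with only the groups compared in the fit (1.15, adjusted p = 0.056).

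Depth moved with these groups. Median UMIs per oligodendrocyte-like nucleus were 1988 to 3169 in the old ad libitum mice and 1577.5 to 1889 in the acutely restricted mice, and per astrocyte-like nucleus 2854.5 to 5024.5 and 2277 to 3060. With this median as a covariate the log2 fold changes were 1.16 for Per1 and 1.54 for Per2 in oligodendrocyte-like nuclei and 1.33 for Per2 in astrocyte-like nuclei, and none was called (adjusted p = 0.259, 0.128 and 0.317). In that fit the called genes of all kinds went from 209 to 40 in oligodendrocyte-like and from 5 to 0 in astrocyte-like nuclei.

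Markers of other classes were also detected in the oligodendrocyte-like sums, and whether their RNA came from other cells was not tested. The 8 granule neuron markers, all 8 detected in both groups, summed to 4822.6 to 5041.0 CPM in the old ad libitum mice and 4638.2 to 4661.5 CPM after acute restriction. This list separates the classes poorly, since its sum was 6587.6 CPM in granule-like and 4659.4 CPM in oligodendrocyte-like nuclei and 6 of its 8 genes were highest in granule-like nuclei. The 8 astrocyte markers summed to 265.1 to 347.9 and 306.2 to 350.1 CPM, and the 7 microglial markers to 33.5 to 52.0 and 45.7 to 66.1 CPM, all detected. In the astrocyte-like sums the 8 oligodendrocyte markers, all detected, gave 144.3 to 315.8 CPM and 140.9 to 213.0 CPM. The sums of granule markers, of the 7 inhibitory neuron markers (2155.6 to 2573.8 against 1847.4 to 2033.3 CPM) and of the 6 committed precursor markers (936.1 to 989.9 against 802.8 to 889.6 CPM) were lower in every acutely restricted mouse, all detected. Cajal-Retzius markers were also lower there (3 of 6 detected, 16.2 to 26.9 CPM, with Lhx1, Lhx5 and Ebf3 at 0, against 5 of 6, 3.8 to 15.7 CPM, with Lhx5 at 0), and hilar mossy cell markers were higher (4 of 6 detected, 5.0 to 17.1 CPM, with Drd2 and Csf2rb2 at 0, against 6 of 6, 19.0 to 19.5 CPM). In the astrocyte-like sums the 7 CA3 markers, all detected, were lower in every acutely restricted mouse (302.6 to 320.7 against 207.4 to 285.8 CPM) and the 9 subicular or cortical markers, all detected, were higher (428.9 to 571.1 against 581.5 to 595.1 CPM). Ependymal markers there were also higher (0 to 3.1 CPM, 2 of 5 detected, with Foxj1, Ccdc153 and Tmem212 at 0, against 4.1 to 5.3 CPM, 3 of 5, with Ccdc153 and Tmem212 at 0). The part of RNA from other cells in the Per1 and Per2 results was not tested.

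The activators and the remaining repressors gave smaller values. Arntl, the partner of CLOCK in the activator, had a log2 fold change of -0.88 in oligodendrocyte-like nuclei (adjusted p = 0.344) and -0.83 ± 0.27 in astrocyte-like nuclei (adjusted p = 0.517). Astrocyte-like Arntl stood at 119, 135 and 120 CPM in the old ad libitum mice and at 68.4, 81.4 and 65.4 CPM after acute restriction, with no overlap. The share of all genes whose groups separate in this way was not computed, for Arntl or for any other gene described as without overlap. In oligodendrocyte-like nuclei the Arntl groups did overlap, because the ad libitum library numbered 1 held only 2.48 CPM beside 33.6 and 27.3 CPM, and without the 4 libraries numbered 1 the change was -1.08 and called (adjusted p = 0.0334).

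Clock, the DNA-binding partner of BMAL1, stood at 216, 216 and 223 CPM in the oligodendrocyte-like nuclei of old ad libitum mice and at 194, 164 and 148 CPM after acute restriction. The groups did not overlap, but the share of all genes that separate so was not computed. The difference of -0.48 ± 0.14 missed the threshold (adjusted p = 0.0738). It was called in the fit with a term for the libraries numbered 1 (-0.48, adjusted p = 0.0382) and in the fit of only the groups compared (-0.49, adjusted p = 0.0276). Npas2, which can replace Clock, had -0.79 in oligodendrocyte-like nuclei and did not pass.

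The cryptochromes and REV-ERB genes leaned the other way in oligodendrocyte-like nuclei without being called. Cry1 stood at 9.91, 9.55 and 13.3 CPM in old ad libitum mice and 19.0, 20.8 and 22.5 CPM after acute restriction (0.88 ± 0.33, adjusted p = 0.218). Cry2 stood at 34.7, 37.3 and 34.3 CPM against 49.5, 54.5 and 50.4 CPM (0.49, adjusted p = 0.249). Nr1d2 stood at 47.1, 64.0 and 67.4 CPM against 79.9, 82.8 and 101 CPM (0.46, adjusted p = 0.254). None of the 3 genes passed over the 11376 genes tested. Their groups did not overlap, but the share of all genes that separate in this way was not computed. Nr1d1 had 0.39 and did not pass.

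Across classes, Per2 was positive in 8 of 8 classes tested (median log2 fold change 0.58), Per1 in 6 of 7 (0.76), Nr1d2 in 8 of 10 and Cry1 in 6 of 8 (0.53), while Arntl was positive in 1 of 8 (-0.33), Npas2 in 1 of 8 (-0.16) and Nr1d1 in 1 of 6. Clock was positive in 4 of 11, Cry2 in 5 of 8 and Per3 in 2 of 2. Over all genes and classes 50.3% of the fold changes were positive. The classes come from the same mice and are not independent, so these are counts only.

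**Figure D2:**
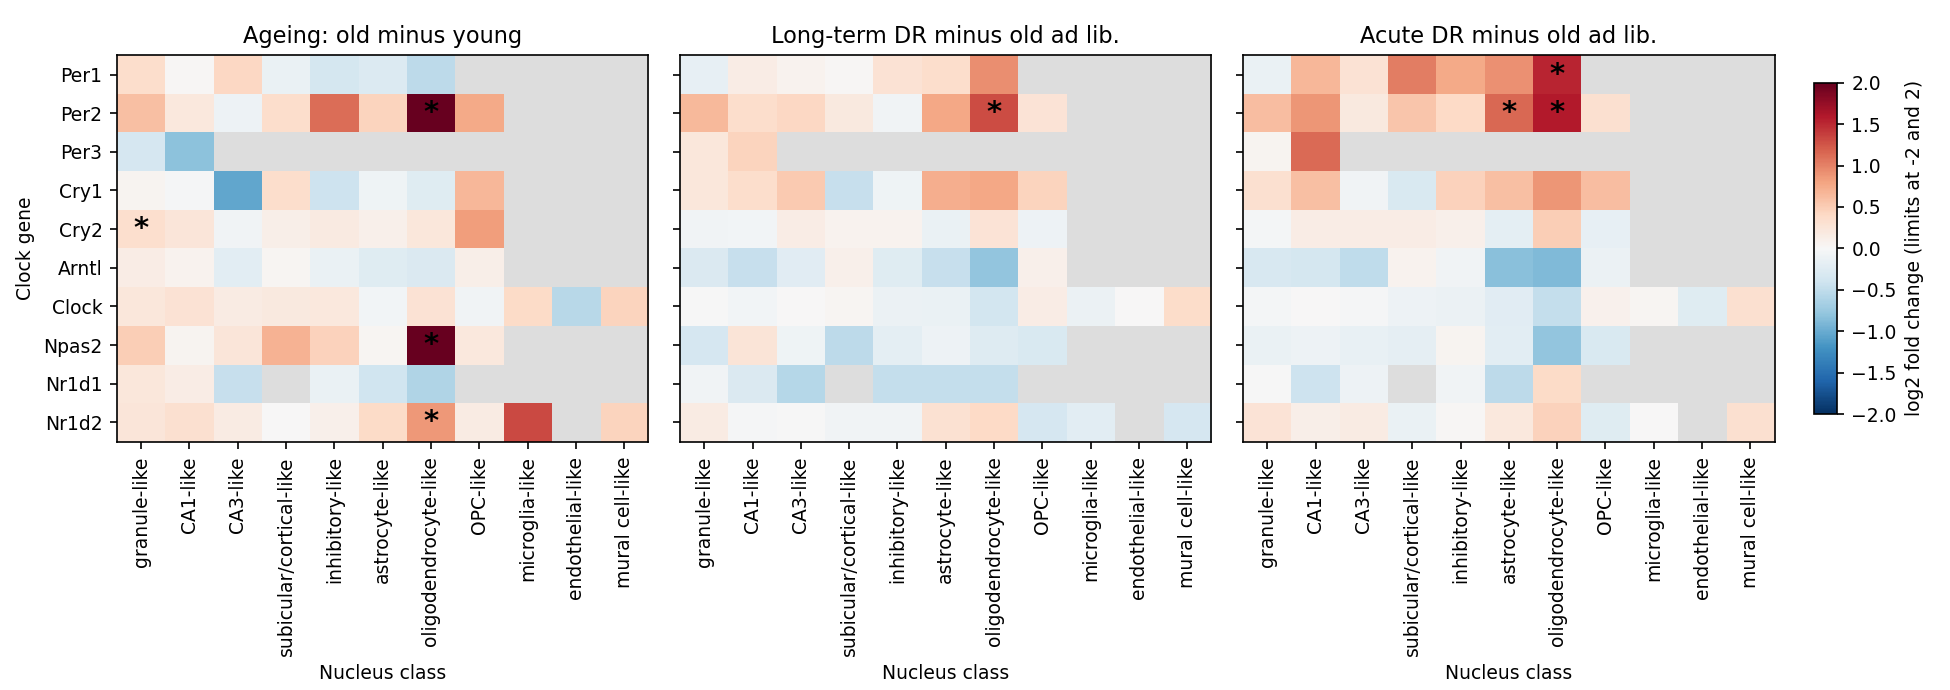
Log2 fold change of each of the 10 clock genes (rows) in each of 11 classes (columns), 1 panel per comparison, with the colour scale limited at 2 in either direction. Stars mark an adjusted p below 0.05 and grey marks pairs with too few counts to test. After acute restriction the Per2 row is positive in all 8 tested classes and the Arntl row is positive in 1 of 8, but 3 pairs carry a star.

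The response in oligodendrocyte-like nuclei was tested against that in dentate granule neuron-like nuclei of the same 13 mice, the largest class. The change of Per1 with acute restriction was larger in oligodendrocyte-like nuclei by 1.68 ± 0.28 log2 units (adjusted p = 5.901e-05), and that of Per2 by 1.01 ± 0.27 (adjusted p = 0.0454). Of all 15849 genes in this test, 0.915% were called. Granule-like Per1 stood at 10.7, 10.1 and 11.6 CPM in old ad libitum mice and at 9.91, 8.94 and 10.7 CPM after acute restriction, so the groups overlapped. Granule-like Per2 stood at 21.1, 24.7 and 17.9 CPM against 29.6, 32.4 and 35.5 CPM, without overlap and without a call (0.61, adjusted p = 0.583). How many of all genes separate so was not computed.

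The Per1 difference between the classes passed without any 1 of the 13 mice (1.44 to 1.80, adjusted p up to 0.0149). That of Per2 ranged from 0.75 to 1.12 and failed in 6 of the 13 such fits. The depth covariate, the gene length trend and DESeq2 were not applied to the class difference. Cry2 and Clock had differences of 0.58 (adjusted p = 0.0933) and -0.43 (adjusted p = 0.119). For long-term restriction 0 clock genes differed between these classes, where 0.29% of genes were called (Per1 1.07, adjusted p = 0.0674), and for ageing also 0, where 1.03% of genes were called (Npas2 3.18, adjusted p = 0.144, and Per2 2.33, adjusted p = 0.209).

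Long-term restriction, compared with the same old ad libitum mice, gave 1 call among the 76 pairs. Per2 was 2.47-fold higher in oligodendrocyte-like nuclei (log2 fold change 1.30 ± 0.30, adjusted p = 0.0485). It stood at 24.6, 24.5, 16.0 and 15.3 CPM in the 4 long-term restricted mice, all above the 6.24 to 14.9 CPM of the ad libitum mice. The lowest restricted value, 15.3 CPM, lay close to 14.9 CPM. The latter came from the ad libitum library numbered 1, with 110 oligodendrocyte-like nuclei. The background was 0.0427% of gene and class pairs over the 11 classes and 0.343% of genes in oligodendrocyte-like nuclei. This call failed in 8 of the 13 fits that left out a mouse, in which the change ranged from 1.13 to 1.48, and with the depth covariate (1.29, adjusted p = 0.132). It also failed with DESeq2 size factors (adjusted p = 0.0523), doublets retained (0.0532), the gene length trend removed (0.0537) and only the groups compared (0.099), at changes of 1.30 to 1.32. In these sums CA3 markers were lower than in the old ad libitum mice (135.6 to 211.6 CPM, 6 of 7 detected, with Iyd at 0, against 221.0 to 235.6 CPM, 7 of 7). Macrophage markers were higher (2.8 to 9.2 CPM, 5 of 7 detected, with Pf4 and Ms4a7 at 0, against 0 to 1.7 CPM, 4 of 7), as were fibroblast markers (5.5 to 30.8 CPM, 7 of 8 detected, with Slc6a13 at 0, against 2.5 to 4.3 CPM, 6 of 8). Their part in the Per2 result was not tested.

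Per1 in oligodendrocyte-like nuclei was scattered among the long-term restricted mice, at 49.2, 28.5, 15.5 and 24.3 CPM. Replicate 3 lay among the ad libitum mice, and the difference of 0.93 ± 0.29 was not called (adjusted p = 0.188). Astrocyte-like Per2 stood at 58.2, 73.0, 56.9 and 67.2 CPM, above the 35.2 to 44.1 CPM of the ad libitum mice, with a change of 0.78 ± 0.18 that was not called (adjusted p = 0.605). Astrocyte-like Per1 was at 9.11 CPM in replicate 3 and at 32.4 to 49.0 CPM in the other 3.

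Across classes Per2 was positive in 7 of 8 (median 0.39), Per1 in 6 of 7 and Cry1 in 6 of 8. Per3 was positive in 2 of 2, Cry2 in 4 of 8, Clock in 5 of 11 and Nr1d2 in 3 of 10. Arntl was positive in 2 of 8 (median -0.27), Npas2 in 1 of 8 and Nr1d1 in 0 of 6 (median -0.48), against 50.6% of fold changes positive over all genes. Apart from Per2 in oligodendrocyte-like nuclei, none of these pairs was called. Here too the classes share their mice and are not independent, so these are counts only.

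Set directly against acute restriction, long-term restriction gave 0 called clock genes with edgeR's quasi-likelihood test and also 0 with DESeq2, where the background was 0.0102% over the 11 classes and 0.0967% in oligodendrocyte-like nuclei. Per1 was lower after long-term than after acute restriction in 7 of 7 classes by sign alone (median log2 difference -0.52), with an unadjusted p under 0.05 in 4 classes and a smallest adjusted p of 0.755. In oligodendrocyte-like nuclei the Per1 difference was -0.60. Unadjusted p was under 0.05 for Per2 in 2 classes, for Cry1 in 1 class and for no other clock gene. By the same edgeR test it was under 0.05 for 647 of 11376 genes in oligodendrocyte-like, 335 of 11476 in astrocyte-like and 417 of 16901 in granule-like nuclei. Over all genes and classes 49.4% of these differences were positive. The classes come from the same mice and are not independent, so these are counts only.

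Ageing was measured between old and young mice fed ad libitum. In oligodendrocyte-like nuclei Per2, Npas2 and Nr1d2 were higher in the old mice, and in granule neuron-like nuclei Cry2 was higher. These 4 of 76 pairs were called, against a background of 1.51% of gene and class pairs over the 11 classes, 7.81% of genes in oligodendrocyte-like nuclei and 3.25% in granule-like nuclei. With 3 of 9 tested clock genes called in oligodendrocyte-like nuclei, the count stands beside a class in which 889 of 11376 genes were called. Per2 and Npas2 passed the low-count filter there only through old mice, and they were not tested in the fit of only the groups compared.

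Nr1d2, the REV-ERB beta gene, stood at 32.3, 40.7 and 29.8 CPM in the oligodendrocyte-like nuclei of young mice and at 47.1, 64.0 and 67.4 CPM in old mice. The groups did not overlap, the fold was 1.82 (log2 0.87 ± 0.23) and the adjusted p was 0.0184. The call failed without old ad libitum replicates 2 or 4 and without young replicates 2 or 3, with changes from 0.69 to 1.09, and with DESeq2 (0.83, adjusted p = 0.0912).

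Per2 was barely detected in young oligodendrocyte-like nuclei, at 0, 1.10 and 0.96 CPM from 0, 1 and 1 UMIs, against 14.9, 7.53 and 6.24 CPM in old mice. The ratio of the summed counts, 48 UMIs in old and 2 in young mice, was 7.63 (95% exact interval 2.00 to 64.8, counting error only) and the adjusted p was 0.0144. Npas2 had 1 UMI in all young oligodendrocyte-like nuclei and 40 UMIs in the old, a ratio of 12.7 (2.16 to 515) with an adjusted p of 0.0411. Npas2 stood at 2.48, 6.66 and 6.24 CPM in the old mice and at 0, 1.10 and 0 CPM in the young. Both genes were thus near the limit of detection in young mice, where 3 libraries gave 92854, 908659 and 1041054 oligodendrocyte-like UMIs in all. With only the young and old ad libitum mice in the fit, neither gene passed the low-count filter, so neither was tested. Both genes entered the main test only through old mice, in which they were higher.

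The Per2 call in old against young oligodendrocyte-like nuclei failed without young replicate 2 (adjusted p = 0.137) or 3 (0.087) and with DESeq2 (2.80, adjusted p = 0.0776), and the Npas2 call failed without any of the 3 young mice. Over the 7 fits with a mouse left out in which Npas2 could be tested, its log2 fold change ranged from 2.54 to 6.31. With the gene length trend removed it was 3.17 and not called (adjusted p = 0.0898). Median UMIs per oligodendrocyte-like nucleus were 1181 to 1743 in young and 1988 to 3169 in old ad libitum mice. With that depth as a covariate the log2 fold changes were 2.98 for Per2, 3.83 for Npas2 and 1.47 for Nr1d2, and none was called (adjusted p = 0.458, 0.596 and 0.107). The called genes of all kinds went from 889 to 9 in that fit. The granule neuron markers in these sums were at 3701.1 to 4629.0 CPM in young and 4822.6 to 5041.0 CPM in old mice, with all 8 markers detected. The 7 CA3 markers gave 129.2 to 160.4 CPM in young and 221.0 to 235.6 CPM in old mice and the 7 CA1 markers 2325.4 to 3209.3 and 2285.4 to 3666.2 CPM, all detected. Cajal-Retzius markers were higher in old mice (9.9 to 10.8 CPM in young, 4 of 6 detected, with Lhx1 and Ebf3 at 0, against 16.2 to 26.9 CPM, 3 of 6 detected). The 6 precursor markers, all detected, were lower in old mice (158.5 to 168.1 against 123.9 to 155.1 CPM), as were the mural markers (15.4 to 21.5 CPM, 5 of 8 detected, with Kcnj8, Acta2 and Notch3 at 0, against 5.5 to 10.4 CPM, 8 of 8 detected). The part of RNA from neurons in the Per2 and Npas2 values was not tested.

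Cry2, a repressor of the loop, stood at 57.2, 63.1 and 61.5 CPM in granule-like nuclei of young mice and at 68.2, 69.8 and 66.6 CPM in old mice. These CPM values are not TMM scaled, and their means of 60.6 and 68.2 CPM lie closer together than the 1.26-fold of the fit. After TMM scaling the difference was small but larger than the spread between mice (log2 0.34 ± 0.08, adjusted p = 0.0458). It failed in 11 of the 13 fits that left out a mouse and with the depth covariate (0.26, adjusted p = 0.607). It also failed with DESeq2 size factors (adjusted p = 0.0513), without the low-count filter (0.0773), with the gene length trend removed (0.0925), with only the groups compared (0.12) and without the 4 libraries numbered 1 (0.074), at changes of 0.32 to 0.35. Median UMIs per granule-like nucleus were 3881 to 6561 in young and 7083 to 12799 in old ad libitum mice. The largest granule-like cluster also differed: it was cluster 0 (1803 and 1665 nuclei) or cluster 3 (2092) in young mice, and cluster 0 (314), 2 (1355) or 5 (855) in old ad libitum mice. Markers of other classes in the granule-like sums differed without overlap between young and old ad libitum mice for several classes. The 7 CA3 markers gave 660.6 to 778.3 against 870.6 to 984.8 CPM, the 7 CA1 markers 264.2 to 363.0 against 371.9 to 434.7 CPM, the 6 hilar mossy cell markers 51.9 to 58.6 against 62.5 to 65.2 CPM, and the 6 oligodendrocyte precursor markers 40.0 to 51.3 against 68.3 to 93.7 CPM, all detected. Mural markers were lower in old mice (12.2 to 30.2 CPM, 8 of 8 detected, against 9.4 to 11.3 CPM, 7 of 8 detected, with Acta2 at 0). The part of cluster makeup and of other cells' RNA in the Cry2 value was not tested.

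Across classes, Nr1d2 was positive with age in 10 of 10 (median 0.28), Npas2 in 8 of 8 (0.35), Per2 in 7 of 8 (0.52), Cry2 in 7 of 8 (0.20) and Clock in 8 of 11 (0.20). Arntl was positive in 4 of 8, Per1 in 3 of 7, Cry1 in 3 of 8, Nr1d1 in 2 of 6 and Per3 in 0 of 2, where 47.9% of fold changes over all genes were positive. These are counts only, since the classes come from the same mice and are not independent. Per2 in inhibitory neuron-like nuclei, with a change of 1.12 and an adjusted p of 0.0507, was the nearest to a call. It was called without the 4 libraries numbered 1 (1.47, adjusted p = 0.00243) and with a term for them (1.09, adjusted p = 0.0117). Median UMIs per inhibitory neuron-like nucleus were 4138.5 to 7644.5 in young and 9240 to 14578.5 in old ad libitum mice.

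Other genes of the clock were read from lists of 9 outputs and 14 modifiers. After acute restriction 1 of 69 tested pairs of an output gene and a class was called, against 0.209% of all pairs and 1.84% of genes in the class concerned. It was Tef, a PAR bZIP factor that binds the D-box, in oligodendrocyte-like nuclei (log2 fold change 0.80, adjusted p = 0.00119), where Tef ranged from 76.8 to 93.5 CPM in old ad libitum mice and from 148 to 162 CPM after acute restriction. All 7 output genes tested in that class were positive, with a median of 0.70 against -0.01 over all genes and 0.46 over the tested clock genes. Of the modifiers 0 of 113 pairs were called. After long-term restriction Tef in oligodendrocyte-like nuclei was again the 1 output called (0.68, adjusted p = 0.0155, 129 to 149 CPM), against 0.0427% of all pairs and 0.343% of genes in that class.

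In ageing, 2 of 69 output pairs were called, Hlf in granule-like (0.54, adjusted p = 0.0329) and in oligodendrocyte-like nuclei (1.84, adjusted p = 0.0498), classes with 3.25% and 7.81% of genes called. Of 113 modifier pairs 2 were called, a share close to the 1.51% of all gene and class pairs in ageing. They were Rora, a nuclear receptor that activates Arntl at the element the REV-ERBs repress, in granule-like nuclei (0.69, adjusted p = 0.0329) and in oligodendrocyte precursor-like nuclei (0.51, adjusted p = 0.0112), where 0.906% of genes were called. All were higher in old mice.

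Per1 is itself induced by glucocorticoids, and a list of 14 genes known for that induction was read beside it. In oligodendrocyte-like nuclei after acute restriction 8 of these 14 were called higher, where 1.84% of all genes tested were called, and all 14 were positive, with a median of 1.75. Among them were the lipid droplet gene Plin4 (2.57), the pyruvate dehydrogenase kinase gene Pdk4 (2.49), Hif3a (3.30), Nfkbia (2.01) and the glucocorticoid receptor co-chaperone gene Fkbp5 (2.41). Fkbp5 ranged from 23.7 to 74.3 CPM in old ad libitum mice and from 152 to 252 CPM after acute restriction, and Hif3a from 13.03 to 22.29 and from 137 to 169 CPM. In oligodendrocyte precursor-like nuclei Fkbp5 (1.09, adjusted p = 0.0229) and Hif3a (2.28, adjusted p = 0.0273) were the 2 of 7 called, where 0.0647% of all genes were called. The list overlaps with genes that earlier results of these data showed to change, so its count is not independent evidence. Its part in the Per1 result was not tested.

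After long-term restriction 1 pair of this list was called, Hif3a in oligodendrocyte-like nuclei (1.82, adjusted p = 0.0173), in a class with 0.343% of genes called, and the list's median there was 0.54. Directly compared, 3 were lower in oligodendrocyte-like nuclei after long-term than after acute restriction, where 0.0967% of genes were called: Plin4 (-1.61, adjusted p = 0.00185), Pdk4 (-1.53, adjusted p = 0.00404) and Hif3a (-1.48, adjusted p = 0.0228). In ageing 1 of 91 pairs was called, where 1.51% of all pairs were called: Zbtb16 in granule-like nuclei (0.57, adjusted p = 0.0403).

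Immediate early genes, which handling and neuronal activity induce within minutes, were read as a further list. Acute restriction gave 0 of 53 pairs called and long-term restriction 0 of 53 with edgeR's quasi-likelihood test. In ageing 1 of 53 was called, Ier2, lower in old granule-like nuclei (-2.16, adjusted p = 0.0358), where 3.25% of genes were called. The list was positive in 9 of 53 pairs in ageing (median -0.47), with 0 of 11 in CA1-like nuclei, and in 36 of 53 after acute restriction (median 0.18), with 10 of 11 in CA1-like nuclei. The part of handling or activity in the Per1 and Per2 results was not tested.

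**Figure D3:**
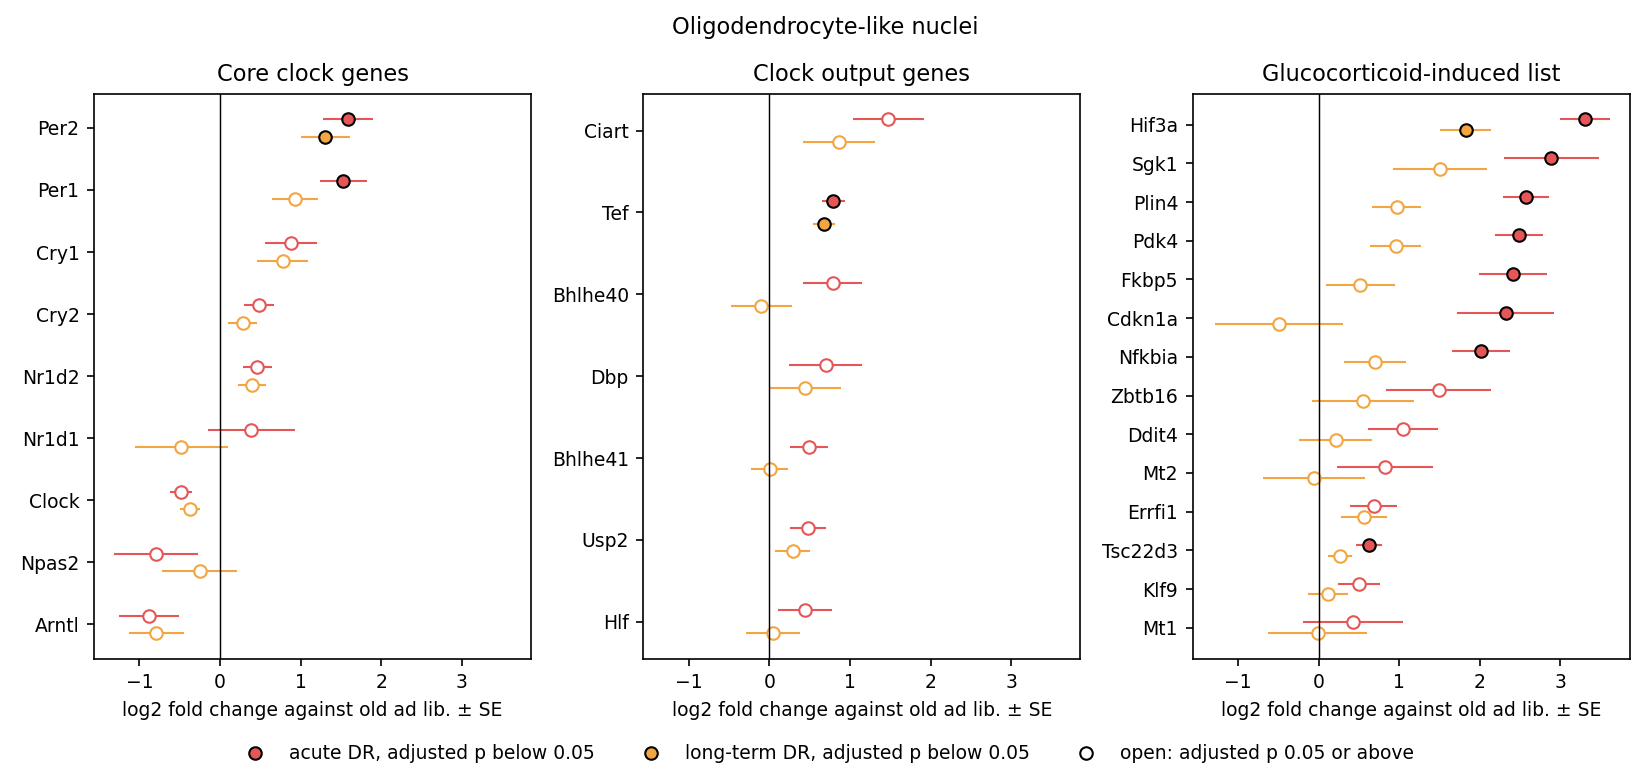
Log2 fold change ± SE in oligodendrocyte-like nuclei for each tested gene of the clock genes, the clock output list and the glucocorticoid-induced list, after acute and after long-term restriction against the same old ad libitum mice. Filled points have an adjusted p below 0.05. After acute restriction Per1 (1.53), Per2 (1.59), Tef (0.80) and 8 glucocorticoid-induced genes are filled.

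The genes whose oligodendrocyte-like levels followed each called clock gene most closely over the 13 mice were found among 11376 genes by Pearson's r of log2 CPM. For Per1 they were Sgk1 (r = 0.941), which encodes a glucocorticoid-inducible kinase, Htra1 (0.924) and Nfkbia (0.916). For Per2 they included Lncpint (0.940) and Klf15 (0.939). Sgk1 itself ranged from 30.4 to 59.5 CPM in old ad libitum mice, from 219 to 371 CPM after acute restriction and from 44.5 to 259 CPM after long-term restriction.

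For Nr1d2 the closest were Abca8a (0.938), Nudt7 (0.922) and Togaram1 (0.909), and for Npas2 they were Unc79 (0.961), Hecw1 (0.932) and Fam135b (0.917). Within the clock genes Per2 followed Nr1d2 (r = 0.907) and Cry2 (0.841) more closely than Per1 (0.558). Per1 followed Nr1d2 with r = 0.546 and Arntl with r = -0.138. These values describe 13 mice in 4 groups that share depth differences and the libraries numbered 1, and no test was made of them.

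The clock genes differed in which cell classes held them. The astrocyte-like class had the highest mean log2 level for 7 of the 10 genes, namely Per1, Per3, Cry1, Cry2, Arntl, Npas2 and Nr1d1. Of the other 3, Per2 was highest in oligodendrocyte precursor-like nuclei, Nr1d2 in mural-like and Clock in oligodendrocyte-like nuclei. On the CPM scale the order differed for Cry1 and Nr1d1. Mean Cry1 was 23.5 CPM in endothelial-like nuclei (9 mice, 4 of them at 0) and 19.1 CPM in astrocyte-like nuclei. Mean Nr1d1 was 32.4 CPM in mural-like nuclei (9 mice, 1 of them at 0) and 30.2 CPM in astrocyte-like nuclei. The order for Per2 depended on the group, since in the acutely restricted mice Per2 in astrocyte-like nuclei (78.7 to 89.9 CPM) was above Per2 in the precursor-like nuclei of every mouse (at most 75.6 CPM). Neighbours in each gene's order of classes were compared over the mice by an exact two-sided sign-flip permutation test, with Benjamini-Hochberg adjustment over the 100 pairs. Of these 100 pairs, 11 passed, and the smallest p that 13 mice allow is 0.000244.

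Among the activators, Npas2 stood at 194 ± 28.5 CPM (SD, n = 13 mice) in astrocyte-like and 166 ± 39.1 CPM in CA1-like nuclei, 2 classes that did not differ beyond their spread. It then dropped to 49.7 ± 7.04 CPM in inhibitory neuron-like nuclei, 1.70 log2 units below CA1 (exact permutation, adjusted p = 0.00349). Granule-like, CA3-like and subicular or cortical nuclei followed at 44.1, 45.5 and 45.9 CPM without passing. Oligodendrocyte-like nuclei held 3.36 ± 2.78 CPM of Npas2, 2.28 log2 units below oligodendrocyte precursor-like nuclei (exact permutation, adjusted p = 0.00349), and microglia-like nuclei 3.01 CPM.

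Clock, in contrast to Npas2, was highest in oligodendrocyte-like nuclei (188 ± 28.5 CPM, n = 13 mice), 0.37 log2 units above CA3-like nuclei (exact permutation, adjusted p = 0.00349), and lowest in astrocyte-like nuclei (73.7 ± 10.2 CPM). The 8 CA3-like to microglia-like classes between were all within 122 to 144 CPM and no neighbouring pair of them passed. Arntl was highest in astrocyte-like nuclei (109 ± 42.7 CPM), 0.60 log2 units above CA1-like nuclei at 69.0 ± 16.9 CPM (exact permutation, adjusted p = 0.00542), and lowest in oligodendrocyte-like nuclei (18.7 ± 12.2 CPM). Subicular or cortical nuclei exceeded granule-like nuclei in Arntl by 0.65 log2 units, at 63.1 against 40.0 CPM.

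Among the repressors, Cry2 stood at 120 ± 14.7 CPM in astrocyte-like, 65.0 ± 3.74 CPM in granule-like and 55.1 ± 6.74 CPM in CA1-like nuclei (n = 13 mice), each step larger than the spread between mice (0.88 and 0.24 log2 units, exact permutation, adjusted p = 0.00349 for both). It stood at 39.5 CPM in oligodendrocyte-like and 25.8 CPM in oligodendrocyte precursor-like nuclei, a step of 0.61 that also passed. Cry1 ranged from 19.1 ± 7.30 CPM in astrocyte-like nuclei to 4.45 ± 2.73 CPM in CA3-like nuclei among neurons and glia, and only the step from granule-like to CA1-like nuclei passed (0.35 log2 units, exact permutation, adjusted p = 0.00888).

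Per1 stood at 37.5 ± 13.6 CPM in astrocyte-like, 26.5 ± 12.9 CPM in oligodendrocyte-like and 9.93 ± 1.27 CPM in granule-like nuclei (n = 13 mice each). Its lowest mean log2 level was in microglia-like nuclei, with 4 of 13 mice at 0. On the CPM scale the microglia-like mean of 11.2 was above the 9.69 CPM of oligodendrocyte precursor-like nuclei. Per2 stood at 54.3 ± 14.7 CPM in oligodendrocyte precursor-like, 54.5 ± 23.2 CPM in astrocyte-like and 14.03 ± 9.80 CPM in oligodendrocyte-like nuclei (n = 13 mice each). Its lowest mean log2 level was in microglia-like nuclei (12.97 CPM), and mural-like nuclei, below astrocyte-like nuclei in mean log2 level, had a mean of 64.5 ± 44.2 CPM over 9 mice. Per3 was low everywhere, at most 3.35 ± 2.55 CPM in astrocyte-like nuclei, with 0 UMIs in mural-like nuclei, and was testable in granule-like and CA1-like nuclei alone. No neighbouring pair passed for Per1, Per2 or Per3.

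Nr1d1 stood at 30.2 ± 11.9 CPM in astrocyte-like nuclei and at 7.17 ± 2.16 CPM in CA1-like and 4.80 ± 0.73 CPM in granule-like nuclei (n = 13 mice), with no neighbouring pair past the threshold. Nr1d2 was highest in mural-like nuclei (156 ± 57.0 CPM, n = 9 mice, 109 UMIs), then in astrocyte-like nuclei (113 ± 23.6 CPM). That step of 0.41 log2 units did not pass (exact permutation, adjusted p = 0.207). In astrocyte-like nuclei Nr1d2 was 0.79 log2 units above oligodendrocyte-like nuclei at 68.3 ± 24.8 CPM (exact permutation, adjusted p = 0.00349). It was lowest in CA3-like nuclei (32.1 ± 5.77 CPM), 0.31 log2 units below granule-like nuclei. The CA3-like class also held raised mossy cell markers, by a mean of 1.28 log2 units, and may not be CA3 alone. With the 4 libraries numbered 1 left out, 0 of the 100 neighbouring pairs passed over 9 mice, where the smallest p the exact permutation test can give is larger.

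**Figure D4:**
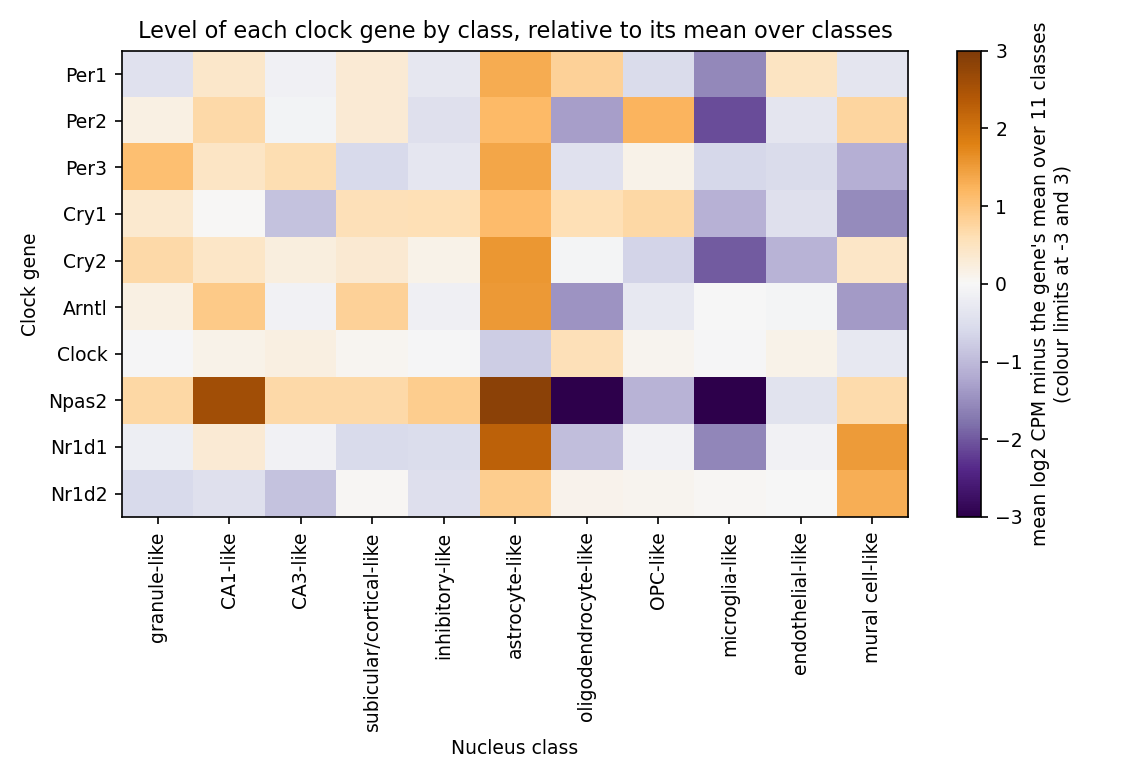
Mean log2 CPM over mice of each of the 10 clock genes (rows) in 11 classes (columns), centred on each gene's own mean over the classes and limited at 3 log2 units in either direction. The astrocyte-like column is the highest for 7 of the 10 genes and the lowest for Clock, and Npas2 is low in oligodendrocyte-like (3.36 CPM) and microglia-like (3.01 CPM) nuclei.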

How the data were processed

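The authors deposited UMI counts per gene and barcode, 1 matrix per mouse, made with Cell Ranger 4.0.0 on mm10 per the submitters' processing notes. Counting of intronic reads and use of strand are not given in the sources used here. A floor of 500 detected genes and a ceiling of 5% on mitochondrial UMIs left 105427 of 105759 barcodes, and 7386 with the highest Scrublet scores per library were removed as doublets. Clustering in scanpy 1.11.5 used 2000 variable genes without the clock genes, 30 components and Leiden at resolution 1 (leidenalg 0.10.2). Of 35 clusters 24 were named, each from at least 3 raised markers. The members, marker and gene lists were chosen with earlier results of these data known.

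Counts were summed per mouse and class (at least 20 nuclei). All 4 groups entered 1 fit per class with edgeR 4.0.16's quasi-likelihood test (R 4.3.3, limma 3.58.1), TMM scaling, filterByExpr and Benjamini-Hochberg adjustment over all genes tested in that class, called at 0.05. The class difference was an interaction with the mouse as a block. Levels used log2 CPM with a prior count of 2. The tests were tried on simulated data. Intervals are at 95%. P-values measure the spread between these mice. Named were all clock genes, with full values for each called pair, up to 6 pairs per list and comparison of smallest adjusted p, and the 3 genes most correlated with each clock gene called in the class with the most calls. 1 gene that this rule names is not reported here. Whether equal replicate numbers pair the mice was checked by correlating deviations from group means in granule-like nuclei.

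Alternatives for the calls within a class were DESeq2 1.42.0, its size factors, no low-count filter, doublets retained, a gene length trend removed, a depth covariate, only the groups compared, a replicate block, a term for or removal of libraries numbered 1, and leaving out each mouse. For the class difference they were no low-count filter, doublets retained, class-specific terms for the replicate or the libraries numbered 1, and leaving out each mouse. Level steps were recomputed with a prior count of 0.5, at least 50 nuclei per sum, doublets retained, and without the libraries numbered 1 or each mouse.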

Additional observations from a re-analysis of the deposited data

Results flagged for a closer look

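Among the 4 long-term restricted mice, 3 of 73 sets of values held a mouse far from the other 3, where chance gives about 1 in 20. Gaps are shares of the whole range on the log2 CPM scale, not on the CPM scale printed beside them. Cry2 in oligodendrocyte precursor-like nuclei stood at 16.61 CPM in replicate 4 (11 UMIs) against 29.19 to 32.77 CPM in the others, a log2-scale gap of 0.846. Nr1d1 in CA3-like nuclei stood at 0.76 CPM in replicate 3 (1 UMI) against 4.01 to 4.52 CPM, a log2-scale gap of 0.9. Nr1d1 in astrocyte-like nuclei stood at 9.11 CPM in replicate 3 (4 UMIs) against 23.75 to 29.63 CPM, a log2-scale gap of 0.837. These low values rest on few UMIs.

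The response to acute restriction differed between oligodendrocyte-like and granule-like nuclei for Per1 (1.68 log2 units, adjusted p = 5.901e-05) and Per2 (1.01, adjusted p = 0.0454), by edgeR's test of the difference itself.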

How the results depend on the processing

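Of 208 recomputed values of the 10 called differences, 140 stayed on the same side of the threshold, 68 lost the call and 0 changed direction. Calls in ageing went from 4 of 76 pairs to 2 with the gene length trend removed, 0 with the depth covariate, 1 with only the groups compared and 8 with a term for the libraries numbered 1. In the fit of only the groups compared fewer pairs entered, since Per2 and Npas2 in oligodendrocyte-like nuclei had too few counts to be tested. After long-term restriction the 1 call went to 0 with DESeq2 size factors, doublets retained, the length trend removed, the depth covariate and only the groups compared. DESeq2 itself gave that pair no adjusted p, so it was not called there. After acute restriction the 3 calls went to 0 with the depth covariate. Long-term against acute restriction stayed at 0 in every fit run. The cause of these changes was not tested.

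Deviations from the group means were correlated between mice in granule-like nuclei alone, and other classes were not checked. Same-numbered deviations correlated at 0.364 to 0.782 for number 1 (6 pairs), -0.122 to 0.398 for number 2 (6 pairs), -0.053 to 0.351 for number 3 (3 pairs) and 0.356 for number 4 (1 pair), against -0.672 to 0.629 between different numbers. The libraries numbered 1 thus deviated together, but not every same-numbered pair did, so the numbers were not taken as pairs. The replicate block gave 7 calls in ageing without Nr1d2 in oligodendrocyte-like nuclei (0.74, adjusted p = 0.0601), 1 after long-term, 3 after acute restriction and 0 for long-term against acute restriction, and the class-specific replicate block gave 4 class differences in place of 2.

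Leaving out 1 mouse at a time gave 0 to 4 calls in ageing, 0 to 2 after long-term, 0 to 3 after acute restriction, 0 to 0 for long-term against acute restriction, 1 to 3 class differences and 10 to 12 level steps. Leaving out the 4 libraries numbered 1 took the level steps from 11 to 0. Over the 9 mice then left, the smallest p that the exact permutation test can give is larger. This loss therefore cannot show whether the steps rest on those libraries. Npas2 in oligodendrocyte-like nuclei had too few counts to be tested in 6 of the 13 fits that left out 1 mouse. Depth limits Per2 and Npas2 in young oligodendrocyte-like nuclei (2 and 1 UMIs), Per3 in every class but 2, and mural-like and endothelial-like nuclei, with 383 and 381 nuclei in all.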

Other observations

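In 4 further classes too few mice had 20 nuclei for a test, and the committed oligodendrocyte precursor-like class (89 nuclei) had 0 such mice. In macrophage-like nuclei (305 nuclei, 8 mice), Npas2, the Clock relative, had a median of 99.2 CPM over mice (25.4 to 186 CPM, 142 UMIs), where the microglia-like class, the other myeloid class, had a median of 0 CPM (0 to 8.82 CPM, 9 UMIs over 13 mice). Of the barcodes in the macrophage-like cluster 47.0% were predicted doublets and removed. Median UMIs per nucleus were 5564, 7184 and 1500.5 in acutely restricted replicates 1, 2 and 3, and 2730 in old ad libitum replicate 1. They were 3759.5 and 2360.5 in young replicates 2 and 3, and 1262 and 1402 in long-term replicates 1 and 2. In microglia-like nuclei they were at most 2255.5. The part of remaining doublets in the Npas2 level was not tested. Clock had a median of 132 CPM in the macrophage-like and 111 CPM in the microglia-like class. In fibroblast-like nuclei (753 nuclei, 9 mice) Clock had a median of 166 CPM, Nr1d2 of 104 CPM and Per2 of 39.6 CPM. In Cajal-Retzius-like nuclei (298 nuclei, 7 mice) Clock had a median of 183 CPM and Arntl of 81.5 CPM. These levels were not tested between classes or groups.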
